A study of Homo sapiens with 27 samples.

Results

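The human mitochondrial chromosome carries 37 genes, and the raw count table held a row for each of them among its 61533 genes. They were taken by position, as every gene that the table places on chrM. The set, like the tests, was chosen with earlier results of these data known. Of the 37 genes, 13 code for proteins, 2 for ribosomal RNAs (MT-RNR1 and MT-RNR2) and 22 for tRNAs. Described are the share of each library that these genes took and the balance among them over days and treatments.

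The libraries came from 92.1, a human uveal melanoma cell line with a mutated GNAQ gene, grown in RPMI with serum. All groups were the same line, so they model 1 tumour only. Cells were kept either in DMSO, the solvent control, or in 100 nM VS-4718, an inhibitor of focal adhesion kinase (FAKi), and both were renewed every 72 h. RNA was taken from DMSO cells at day 0 and from DMSO and FAKi cells at days 3, 7, 14 and 21, with 3 replicate libraries in each of the 9 groups and 27 libraries in all. The study's methods speak of triplicate plating and of biological repeats, while the labels give only a replicate number, so the p-values measure the spread between these libraries, which may in part be technical. The cells were passaged continually, so libraries of different days may share a culture. The main tests over several days treat these libraries as independent. The kit selects poly(A) RNA.

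Mitochondrial DNA is transcribed from both strands into long precursors, from which the tRNAs are cut out and the mRNAs and rRNAs between them are freed. Most of the mRNAs then receive a poly(A) tail, which in several completes the stop codon. The 13 proteins are all subunits of oxidative phosphorylation: 7 belong to complex I (MT-ND1 to MT-ND6 and MT-ND4L), 1 to complex III (MT-CYB), 3 to complex IV (MT-CO1 to MT-CO3) and 2 to the ATP synthase (MT-ATP6 and MT-ATP8). Every other subunit is made from nuclear genes.

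Pairs of these genes share bases, and that sets what their counts can show. MT-ATP8 (hg38 chrM:8366-8572, plus strand, 207 bases) runs into MT-ATP6 (chrM:8527-9207), and MT-ND4L (chrM:10470-10766, plus strand, 297 bases) into MT-ND4 (chrM:10760-12137). Each pair is carried on 1 mature mRNA with both reading frames. Both upstream genes are printed because their counts varied most among the protein-coding genes, with the bases shared with the downstream gene in capitals (46 for MT-ATP8, 7 for MT-ND4L). MT-TS1, which codes for a serine tRNA (chrM:7446-7514, minus strand, 69 bases), is printed because its count took the widest range of shares among the 5 tRNA genes with most reads. It has no capitals and is written 5′ to 3′ on its own strand.
MT-ATP8: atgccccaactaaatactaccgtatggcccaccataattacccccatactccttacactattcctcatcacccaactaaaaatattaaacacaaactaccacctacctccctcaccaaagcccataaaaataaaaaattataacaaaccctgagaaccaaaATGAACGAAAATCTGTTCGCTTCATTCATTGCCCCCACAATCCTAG
MT-ND4L: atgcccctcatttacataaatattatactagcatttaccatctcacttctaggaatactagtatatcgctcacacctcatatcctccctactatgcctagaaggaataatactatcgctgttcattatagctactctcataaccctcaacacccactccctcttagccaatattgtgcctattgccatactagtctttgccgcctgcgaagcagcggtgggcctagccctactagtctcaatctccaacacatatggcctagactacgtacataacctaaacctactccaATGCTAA
MT-TS1: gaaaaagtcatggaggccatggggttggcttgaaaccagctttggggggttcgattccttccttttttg

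Of the 13 protein-coding rows, 7 ended on a complete stop codon and 6 did not (MT-ND1, MT-ND2, MT-CO3, MT-ND3, MT-ND4 and MT-CYB). MT-ND6 is the only protein-coding gene read from the minus strand, and 8 of the tRNA genes (MT-TQ, MT-TA, MT-TN, MT-TC, MT-TY, MT-TS1, MT-TE and MT-TP) lie on that strand too. The counts did not separate strands: for 169 pairs of genes across the genome in which 1 gene has at least 90% of its bases under a gene of the other strand, the median ratio of counts per base was 0.990, and 153 pairs had a ratio of at least 0.1. The values of MT-ND6 and of these 8 tRNA genes can therefore include reads from the other strand, in unknown part. MT-TS1 lies just past the end of MT-CO1, whose transcript is known to run on across its complement.

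Copies of mitochondrial DNA in the nuclear genome can split reads with these genes. The table held 415 such pseudogenes, of which 203 had a count, and together they took 1.00 to 4.46% of a library. The 4 with the largest totals all lie in a single stretch of chromosome 1. MTATP6P1 (hg38 chr1:633696-634376) held 62.5 to 85.9 counts per 100 of MT-ATP6, MTCO1P12 (chr1:631074-632616) 25.8 to 49.7 per 100 of MT-CO1, MTND2P28 (chr1:629640-630683) 6.75 to 31.9 per 100 of MT-ND2 and MTCO3P12 (chr1:634376-634922) 14.3 to 18.2 per 100 of MT-CO3. Reads of these 4 mitochondrial genes and of their copies cannot be told apart here, so their values are uncertain. MTND1P23, the next in total, lies in the same stretch and held 1018261 counts over all libraries, against 7080899 for MT-ND1. The values of MT-ND1 and of other genes with such copies are uncertain too.

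Library totals ran from 12161994 to 43651551 counts, and mitochondrial genes took 1092612 to 9319940 of them, so counting error was small against the spread between replicates for all but the rarest tRNAs. The labelled cell type was borne out by most of its markers. PMEL, a melanosome protein, ran from 2355 to 8908 counts per 1000000 of the library (CPM). MLANA ran from 439 to 767 and SOX10, a melanocyte transcription factor, from 280 to 905. DCT, also a melanocytic marker, was low, at 2.36 to 27.4 CPM. Among markers of other cells, KRT5 was at 0 in all 27 libraries, CD3E in 25, COL1A2 and CDH5 in 24 each and DCN in 23. The fibroblast markers COL1A1, at 3.03 to 10.2 CPM, and LUM, at 1.58 to 8.91 CPM, were at 0 in no library, and CD68, which melanoma lines also transcribe, ran from 26.7 to 127 CPM.

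The mix of mitochondrial RNAs differed among replicates of several groups. The distance between libraries was computed over the 13 mRNAs and 2 rRNAs, from the log2 of each gene's share, as a root mean square. DMSO day 3 replicate 1 lay 0.534 to 0.782 from its replicates and 0.0727 from DMSO day 0 replicate 3. FAKi day 7 replicate 1 lay 0.429 to 0.508 from its replicates and 0.0128 from FAKi day 14 replicate 1, and over all genes these libraries of different groups differed by a chi-square per degree of freedom of 1.64, against 3.04 or more in the 27 replicate pairs. DMSO day 21 replicate 3 lay 0.757 to 0.803 from its replicates and 0.200 from DMSO day 3 replicate 3, and the day in its column name in the count table carries an extra digit, while its title gives day 21. The other DMSO day 3 libraries were also far apart, with replicate 2 at 0.429 to 0.534 and replicate 3 at 0.429 to 0.782 from their replicates. DMSO day 14 replicate 1 lay 0.350 to 0.474 from its replicates and 0.234 from FAKi day 14 replicate 3. Over the series, 13 of the 27 libraries had their nearest library in their own group. All libraries were kept under their labels, although the likeness of FAKi day 7 replicate 1 to FAKi day 14 replicate 1 leaves its label in doubt. DMSO day 3 replicate 1, FAKi day 7 replicate 1 and DMSO day 21 replicate 3 are called the 3 libraries that stand apart, a choice made after seeing the data, and counts of calls at days 3, 7 and 21 are given with and without them, as are those at day 14 for DMSO day 14 replicate 1.

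Mitochondrial genes took between 5.49 and 26.97% of a library, and the share moved more over days in DMSO than between treatments. At day 0 the 3 DMSO libraries held 17.0, 17.9 and 18.8% (mean 17.9% ± 0.915, SD, n = 3). The DMSO cells then held 18.1, 9.59 and 8.61% at day 3 (12.1% ± 5.22), 19.3, 17.0 and 17.5% at day 7 (18.0% ± 1.20), 21.95, 26.7 and 26.97% at day 14 (25.2% ± 2.81) and 5.49, 5.49 and 9.75% at day 21 (6.91% ± 2.46), replicates 1 to 3 in that order. The day 14 libraries were the highest of the DMSO series and the day 21 libraries among the lowest, with no overlap between day 0 and either of them. As these are bulk libraries, fewer cells with these RNAs and less of the RNA per cell cannot be told apart, and a share also falls when other RNAs rise.

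FAKi cells varied less. They held 16.8, 18.7 and 17.4% at day 3 (17.6% ± 0.962), 20.3, 20.2 and 20.7% at day 7 (20.4% ± 0.273), 20.7, 21.7 and 22.1% at day 14 (21.5% ± 0.704) and 10.7, 10.7 and 11.2% at day 21 (10.9% ± 0.281). Against DMSO of the same day the mean share was 1.46-fold at day 3, 1.14-fold at day 7, 0.853-fold at day 14 and 1.57-fold at day 21. All 3 FAKi libraries were above all 3 DMSO libraries at days 7 and 21, while at days 3 and 14 the treatments overlapped. With 3 libraries against 3 the smallest two-sided p of an exact permutation test is 0.1, and the share was given no test. Leaving out 1 library at a time, the log2 ratio ran from 0.35 to 0.95 at day 3, 0.15 to 0.24 at day 7, -0.32 to -0.18 at day 14 and 0.51 to 0.99 at day 21.

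**Figure D1:**
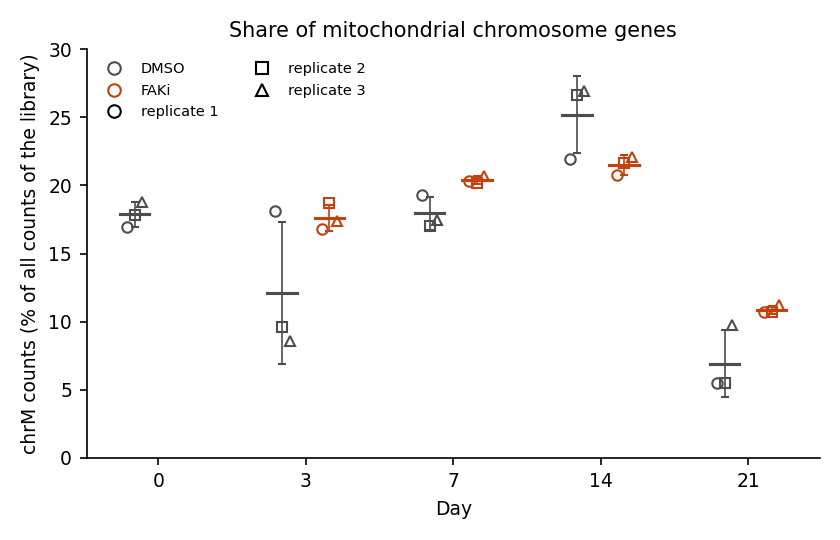
Percent of each library's counts on the 37 mitochondrial genes (y axis) by day (x axis) in DMSO and FAKi cells, with points for replicates and bars for the mean ± SD of 3 libraries. Both treatments fall at day 21, to 6.91% in DMSO and 10.9% in FAKi, and DMSO at day 3 is split between 18.1% and the pair at 9.59 and 8.61%.

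Protein-coding genes made up 83.4 to 95.2% of the mitochondrial counts, rRNA genes 4.34 to 12.4% and tRNA genes 0.419 to 4.25%. Per length, the most abundant were MT-CO2, a core subunit of cytochrome c oxidase, with a median of 27911 CPM per kilobase of gene over the 27 libraries, MT-ATP6 with 25307, MT-ND4 with 25131 and MT-ATP8 with 24358. In the DMSO day 0 libraries these were at 27477 ± 1591, 25359 ± 587, 25821 ± 1594 and 24104 ± 1030 (SD, n = 3), so the order among the latter 3 lay within the spread of the replicates. MT-CO3 (20298 ± 1713), MT-CO1 (14931 ± 1289), MT-ND2 (12612 ± 361), MT-CYB (12314 ± 1001) and MT-ND1 (11449 ± 586) came next on the same scale at day 0, with MT-ND2 and MT-CYB not apart. MT-ND3 (6940 ± 333), MT-ND6 (6682 ± 200) and MT-ND4L (6368 ± 207) formed a lower group of neighbours whose ranges touch, and MT-ND5, the largest complex I subunit of the set, was the lowest mRNA at 3526 ± 216. MT-RNR2, the large ribosomal RNA, was at 5987 ± 229 and MT-RNR1, the small one, at 338 ± 23.5. Both are levels in poly(A) libraries, which capture an rRNA only as far as it has an adenine tail. Counts on tRNA genes in such libraries can come from longer RNAs that cross these genes, so they are not read as levels of the tRNAs. Low tRNA genes carried few counts over all 27 libraries, with 41 for MT-TF and 112 for MT-TA.

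The balance among the complexes also turned at day 21. Complex I genes held 41.3% ± 0.266 of the mitochondrial counts at day 0, 48.0% ± 4.63 in DMSO at day 14, 27.5% ± 4.96 in DMSO at day 21 and 33.9% ± 1.72 in FAKi at day 21 (SD, n = 3 each). Complex IV genes went the other way, with 32.3% ± 0.838, 27.2% ± 5.56, 44.4% ± 3.86 and 37.05% ± 0.978 in the same groups. In DMSO at day 21 complex I held 24.5, 24.8 and 33.2% and complex IV 47.2, 46.0 and 40.02% in replicates 1 to 3, so that replicate 3 lay within the FAKi range for complex I (32.5 to 35.8%). The ATP synthase genes held 12.5% ± 0.530 at day 0 against 7.04% ± 1.23 in DMSO and 9.51% ± 0.137 in FAKi at day 21. MT-CYB, the complex III gene, moved least of the 13, between 5.92 and 8.26% in the 27 libraries.

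Counts on the rRNA and tRNA genes took a larger part late. The rRNA genes held 5.41% ± 0.314 of mitochondrial counts at day 0, 10.96% ± 2.14 in DMSO and 9.47% ± 0.613 in FAKi at day 21, given here as values with no test. The tRNA genes were at 0.692% ± 0.0296 at day 0, 0.443% ± 0.0281 in DMSO at day 14, 3.301% ± 1.35 in DMSO at day 21 and 2.15% ± 0.466 in FAKi at day 21. DMSO day 21 replicate 3 was the lowest of its group for both, with 8.49% rRNA and 1.76% tRNA, against 11.99 and 12.4% rRNA and 3.897 and 4.25% tRNA in the other libraries. MT-TS1 alone held 1.96, 2.09 and 0.819% in DMSO day 21 replicates 1 to 3, and its reads can come from the other strand. Among single genes, MT-TS1 spanned 0.0543 to 2.09% (38.5-fold), MT-ATP8 0.310 to 3.80% (12.3-fold) and MT-ND4L 0.151 to 1.70% (11.2-fold), against 9.60 to 20.8% for MT-ND4.

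**Figure D2:**
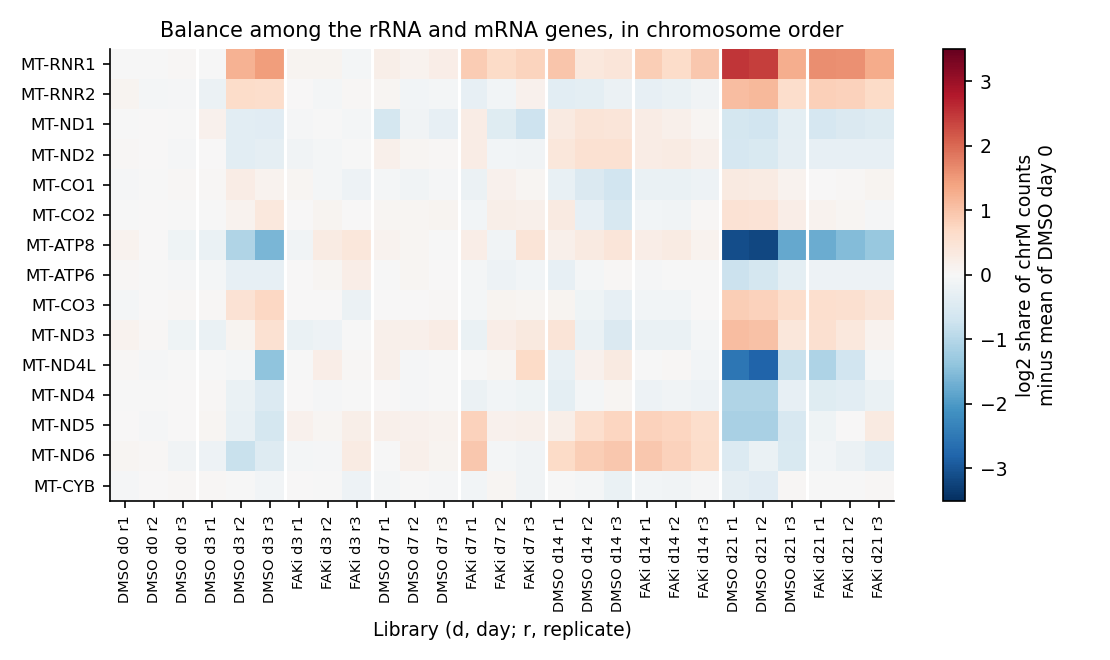
Heat map of the share of mitochondrial counts taken by the 2 rRNA and 13 protein-coding genes (vertical) in each of the 27 libraries (horizontal), as the log2 difference from the mean of DMSO day 0. The DMSO day 21 libraries stand out with low MT-ATP8 and MT-ND4L and high MT-RNR1, and DMSO day 21 replicate 3 is paler than the other two.

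Long culture in DMSO was followed by comparing day 21 with day 0, with each gene tested by edgeR's quasi-likelihood test over all genes. Levels are in CPM with library sizes scaled by TMM, which sets most genes equal between libraries, and a gene was called where its Benjamini-Hochberg adjusted p did not exceed 0.05 and its fold change exceeded 1 on the log2 scale in either direction. Of 36 mitochondrial genes with enough counts, 10 were called lower and 10 higher, against 10% and 13.2% of all genes tested (23.3% in both directions). By the adjusted p alone 28 passed (44.9% of all genes did), with 17 lower, among them all 13 protein-coding genes, and 11 higher (20.7% and 24.1% of all genes). The median log2 fold change over the 36 genes was -0.31, against 0.03 over all genes.

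MT-ATP8, a small ATP synthase subunit, fell furthest of the mRNAs. At day 0 it had 4959, 4883 and 4559 CPM, against 195, 189 and 730 CPM at day 21. Every day 21 library was far below every day 0 library, with replicate 3 the highest of them (log2 fold change -3.69, SE 0.53, edgeR adjusted p = 0.00257).

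MT-ND4L, which shares its mRNA with MT-ND4, had 1783, 1794 and 1882 CPM at day 0, against 112, 92.2 and 555 CPM later (-2.85, SE 0.64, adjusted p = 0.00896). MT-ND5 had 5871, 6008 and 6558 CPM against 979, 989 and 2180 CPM (-2.15, SE 0.32, adjusted p = 0.00277). Both genes showed the same order of libraries, replicates 1 and 2 low and replicate 3 in between. MT-ND4 fell by 1.96, MT-ATP6 by 1.82, MT-ND1 by 1.79, MT-ND2 by 1.74, MT-ND6 by 1.71, MT-CYB by 1.47 and MT-CO1 by 1.06 on the log2 scale, all called.

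The complex IV genes and MT-ND3 fell less. MT-CO1 started from 20230, 22179 and 24039 CPM and ended at 9637, 9650 and 12562 CPM. MT-CO2 fell by 0.90, MT-CO3 by 0.54 (adjusted p = 0.0498) and MT-ND3 by 0.47, all past the adjusted p and short of the fold. The 3 genes did not overlap between the days either: MT-CO3 went from 13897, 15575 and 16459 CPM to 9782, 9578 and 12224 CPM.

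MT-RNR1 rose where the mRNAs fell, from 291, 307 and 333 CPM to 621, 596 and 388 CPM (log2 fold change 0.78, SE 0.19, adjusted p = 0.0126). MT-RNR2 did not pass, with 9096, 8645 and 9195 CPM against 6617, 6976 and 7237 CPM (-0.37, adjusted p = 0.096). The small rRNA was thus higher in every day 21 library and the large one lower, and MT-RNR2 went from 31.2, 28.1 and 27.6 counts per count of MT-RNR1 to 10.7, 11.7 and 18.7.

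The 10 called higher were all tRNA genes. Whether their reads came from tRNAs or from longer RNAs across these genes was not tested. MT-TS1 went from 220, 242 and 224 CPM to 1185, 1277 and 736 CPM (log2 fold change 2.22, SE 0.22, adjusted p = 0.000811). MT-TN, an asparagine tRNA, had 26.4, 30.02 and 24.6 CPM against 150, 154 and 65.04 CPM (2.19). MT-TC, a cysteine tRNA, had 27.4, 33.6 and 34.3 CPM against 129, 125 and 65.3 CPM (1.74). For these 3, replicate 3 was the lowest of the day 21 libraries and still above all of day 0. MT-TT (1.77), MT-TP (1.73), MT-TQ (1.72), MT-TY (1.19) and MT-TD (1.12) also rose, as did MT-TR (3.51) and MT-TL2 (3.12), which were at 0.0605 to 0.314 and 0.159 to 0.423 CPM at day 0. MT-TE (-0.12, adjusted p = 0.61) and MT-TG (-0.24) did not pass. Of the 10 risers, MT-TS1, MT-TN, MT-TC, MT-TP, MT-TQ and MT-TY lie on the minus strand.

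In 30 of the 36 genes (83.3%) the day 0 and day 21 libraries did not overlap, against 58.1% of all genes tested. Without DMSO day 21 replicate 3, 22 genes were called (36.9% of all genes), with MT-ATP8 at -4.65 and MT-ND4L at -4.16. The summed counts of the 3 leukocyte markers, nearly all CD68, were 99.5 to 110 CPM at day 0 and 51.3 to 75.1 CPM at day 21, with PTPRC at 0 in 20 and CD3E in 25 of the 27 libraries, and their part in these results was not tested. Over the 5 DMSO days together, 28 of 36 genes differed among days at an adjusted p of at most 0.05, against 49.9% of all genes.

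At day 21 short nuclear RNAs were high against long ones, while the mitochondrial share was low. Over 10471 nuclear genes of 10 CPM or more, each library's log2 deviation from the mean of all libraries was taken per gene, and the balance was its median over the short genes (at most 2012 bases) minus its median over the long genes (at least 5284 bases). It was 1.36, 1.37 and 0.405 in the DMSO day 21 libraries, 0.626, 0.505 and 0.158 in the FAKi day 21 libraries and -0.354, 0.0241 and 0.664 in the DMSO day 3 libraries, while the other groups lay between -0.499 and -0.111. The DMSO day 3 and day 21 libraries with a high balance were those with a low mitochondrial share. The part of this balance in the mitochondrial results was not tested.

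**Figure D3:**
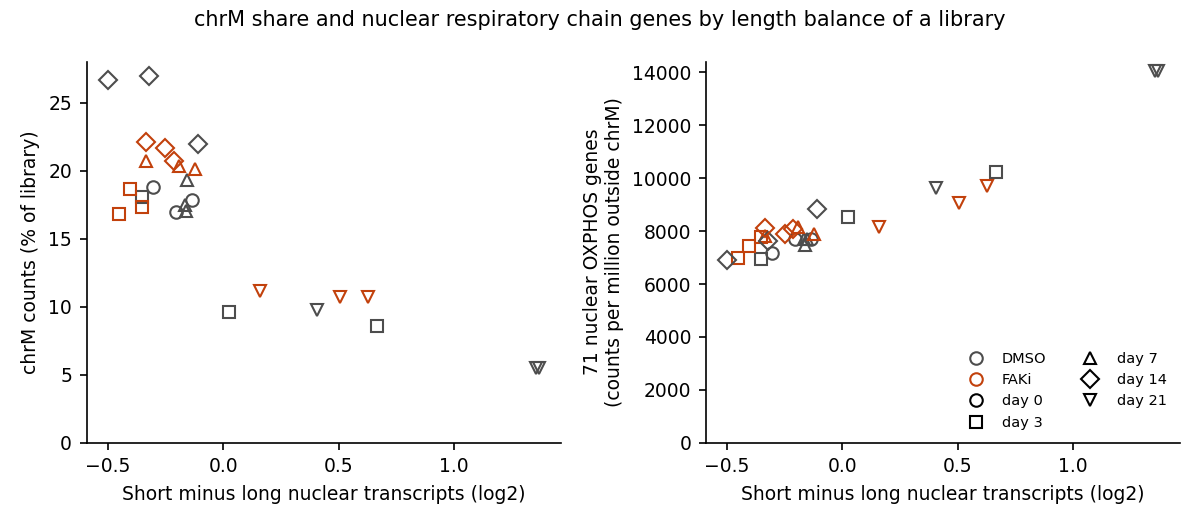
The short-minus-long balance of nuclear genes (log2) against the mitochondrial share of counts (percent) and against the summed counts of 71 nuclear oxidative phosphorylation genes (CPM of the counts outside chrM), 1 point per library. The DMSO day 21 libraries, at 5.49, 5.49 and 9.75% mitochondrial counts, include the highest balances of 1.36 and 1.37.

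The nuclear genes for subunits of the same complexes went the other way. The 71 listed genes, all found in the table, summed to 7528 ± 305 CPM of the counts outside chrM in DMSO at day 0, 12569 ± 2546 in DMSO at day 21 and 8973 ± 789 in FAKi at day 21 (SD, n = 3 each). From day 0 to day 21 in DMSO, 45 of the 71 were called higher and 0 lower, against 13.2% and 10% of all genes, and 63 passed by the adjusted p alone, against 44.9%. Replicates 1 to 3 of DMSO day 21 summed to 14048, 14031 and 9629, and without replicate 3 55 were called higher (19.3% of all genes). Their median exon length was 1246 bases and 49 of them were among the short genes above. The part of transcript length in their rise was not tested.

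Nuclear genes that copy or transcribe mitochondrial DNA, process its RNA or regulate such genes formed a list of 42, all measured. From day 0 to day 21 in DMSO, 5 were called higher and 2 lower, against 13.2% and 10% of all genes, so the share called in the list was not above that of all genes. Without DMSO day 21 replicate 3 the counts were 8 and 2, against 19.3% and 17.6%. SLIRP, which binds and protects mitochondrial mRNAs, rose (log2 fold change 1.47, SE 0.32, edgeR adjusted p = 0.00811), and PPARGC1A, a coactivator of mitochondrial biogenesis, fell by 1.10 (adjusted p = 0.00805). POLRMT, the mitochondrial RNA polymerase, rose by 0.71 (adjusted p = 0.00866), short of the fold. TFAM, which packages the mitochondrial genome and starts its transcription, moved by -0.36 on the log2 scale (adjusted p = 0.102).

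FAKi was then compared with DMSO at each day, which asks how the mitochondrial genes answered to the inhibitor. No mitochondrial gene was called at day 3 (0 of 35, where 0% of all genes were called), day 7 (0 of 35, 0.0269%) or day 14 (0 of 36, 1.66%), and 1 was called at day 21 (of 36, 5.28%), a gene higher in FAKi as were 2.58% of all genes. At an unadjusted p of at most 0.05 the counts were 11, 12, 16 and 10, against 23.8, 8.77, 24.6 and 32.6% of all genes. DESeq2 called 3 at day 3, 2 at day 7 and 3 at day 21. Its share over all genes is not given here, so these 3 counts do not set mitochondrial genes apart from others. The median log2 fold change of the mitochondrial genes was 0.39, 0.63, -0.10 and 0.27 at the 4 days, against -0.02, 0.01, -0.01 and 0.01 over all genes.

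**Figure D4:**
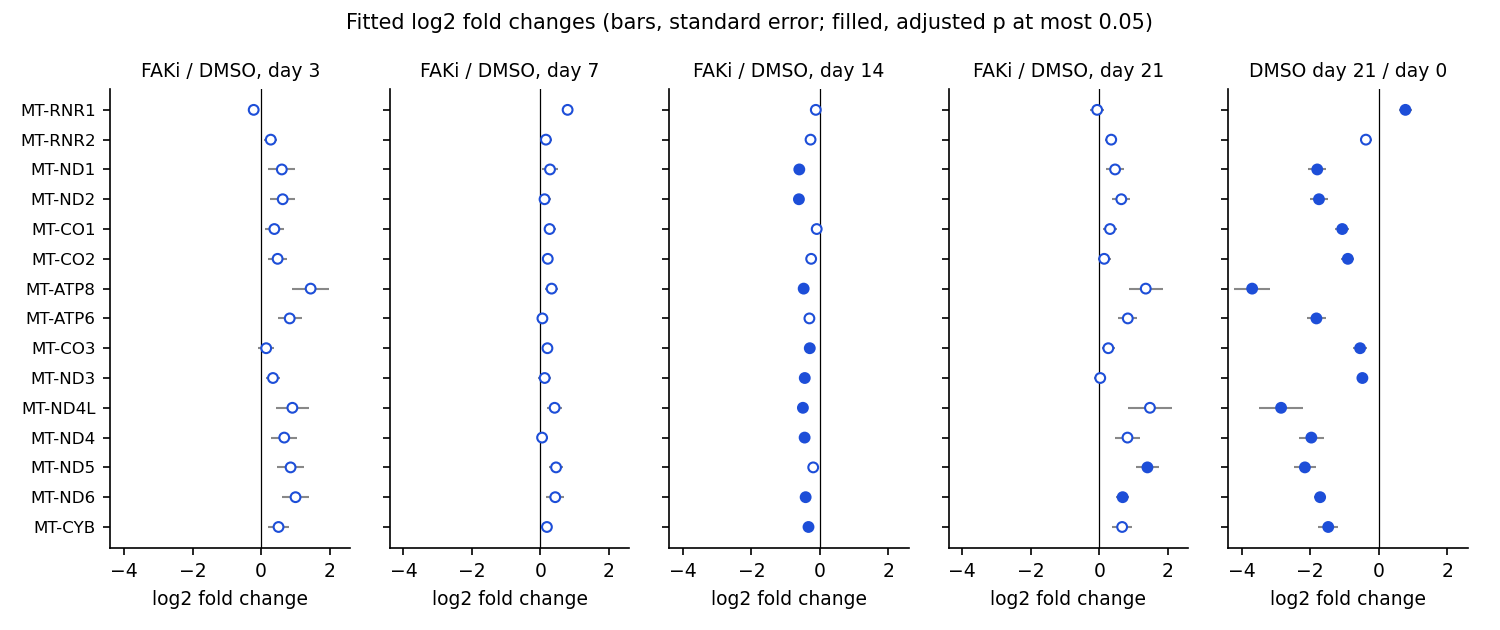
Log2 fold change ± SE of each mitochondrial rRNA and protein-coding gene, FAKi against DMSO at days 3, 7, 14 and 21 and DMSO day 21 against DMSO day 0, with filled symbols for an edgeR adjusted p of at most 0.05. All 13 protein-coding genes lie below 0 in the last panel, while in the FAKi panels filled symbols appear at day 14, for 9 protein-coding genes, and at day 21, for MT-ND5 and MT-ND6.

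At day 3 the DMSO libraries were split. MT-ATP8 had 4344, 1206 and 809 CPM in DMSO and 4227, 6604 and 6514 CPM in FAKi, and MT-ND5 6851, 2687 and 2056 CPM against 6606, 7196 and 7276 CPM. In both genes DMSO replicate 1 was inside the range of the FAKi libraries and the other DMSO libraries far below it. MT-TS1 was the mirror image, with 192, 557 and 877 CPM in DMSO and 205, 186 and 169 CPM in FAKi. MT-RNR2 had 8400, 7302 and 7080 CPM in DMSO and 8762, 9505 and 9445 CPM in FAKi, with no overlap. Without DMSO day 3 replicate 1, 19 of 35 genes were called (12.7% of all genes), 14 higher in FAKi and 5 lower (6.13% and 6.59% of all genes), with MT-ATP8 at 2.53, MT-ND6 and MT-ND4L at 1.69 each, MT-ND5 at 1.57 and MT-TS1 at -1.93. The endothelial markers summed to 0.112 to 0.242 CPM in DMSO and 0.286 to 0.509 CPM in FAKi at day 3, and their part was not tested.

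At day 7 the clearest separation was in MT-RNR1, with 410, 330 and 362 CPM in DMSO and 668, 597 and 646 CPM in FAKi (log2 fold change 0.79, edgeR adjusted p = 0.15). MT-TN had 30.1, 23.7 and 28.9 CPM in DMSO and 64.3, 52.7 and 114 CPM in FAKi (1.48, adjusted p = 0.15). In neither gene did the treatments overlap, and neither passed the test. MT-ND1, a complex I core subunit, had 8024, 9454 and 8626 CPM against 14633, 9385 and 7665 CPM, with the high FAKi value in replicate 1, the library that matched FAKi day 14. Without it 8 genes were called, all tRNA genes and all higher in FAKi (MT-TL1, MT-TH, MT-TT, MT-TW, MT-TI, MT-TG, MT-TN and MT-TD), against 1.14% of all genes (0.587% in that direction and 0.551% in the other). The leukocyte markers summed to 89.3 to 102 CPM in DMSO and 41.9 to 79.1 CPM in FAKi at day 7 and the 3 endothelial markers to 0.104 to 0.201 and 0.470 to 0.859 CPM, and their part in the day 7 values was not tested.

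At day 14, 9 of the 13 protein-coding genes were lower in FAKi by the adjusted p, all by less than the fold required. By the adjusted p alone 10 of 36 mitochondrial genes passed, all lower in FAKi, against 12.4% of all genes in both directions and 6.1% lower. MT-ND2 had 21669, 29589 and 30720 CPM in DMSO and 17435, 18479 and 17790 CPM in FAKi (log2 fold change -0.61, SE 0.10, edgeR adjusted p = 0.000257). MT-ND1 had 16912, 23452 and 23948 CPM against 14398, 14502 and 13553 CPM (-0.60, SE 0.10, adjusted p = 0.000371). In these 2 complex I genes every FAKi library was below every DMSO library, and DMSO replicate 1 was the lowest of its group.

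The others that passed at day 14 were MT-ATP8 (-0.47, adjusted p = 0.00669), MT-CYB (-0.33, adjusted p = 0.00957), MT-CO3 (-0.29, adjusted p = 0.0125), MT-ND3 (-0.44, adjusted p = 0.0134), MT-ND4 (-0.44, adjusted p = 0.021), MT-ND6 (-0.41, adjusted p = 0.0221), MT-TL1 (-0.57, adjusted p = 0.0224) and MT-ND4L (-0.49, adjusted p = 0.0303). MT-ND4 had 34887, 53381 and 60330 CPM in DMSO and 34475, 37663 and 37119 CPM in FAKi, so that DMSO replicate 1 lay among the FAKi libraries. MT-ND5 did not pass and overlapped, with 9099, 14990 and 17577 CPM against 12353, 12531 and 11564 CPM (-0.19, adjusted p = 0.463). MT-ATP6 (-0.30, adjusted p = 0.0905), MT-CO2 (-0.25, adjusted p = 0.101) and MT-CO1 (-0.09, adjusted p = 0.511) did not pass either, and MT-CO1 was above 0 with library totals as the only scaling. Without DMSO day 14 replicate 1, 13 genes passed by the adjusted p, all lower (13.7% of all genes, 6.91% lower), and 0 were called (1.96%). Leaving out each other library, the genes passing in either direction were 6 without DMSO replicate 2, 7 without DMSO replicate 3 and 3, 3 and 5 without FAKi replicates 1, 2 and 3. The leukocyte markers summed to 42.4 to 52.0 CPM in DMSO and 40.1 to 41.7 CPM in FAKi at this day and the 5 fibroblast markers to 8.11 to 11.7 and 12.9 to 13.7 CPM, with no test of their part. With library totals as the only scaling, 3 mitochondrial genes passed by the adjusted p in place of 10. For this fit and for those without DMSO replicate 2 or 3 or a FAKi library, the share of all genes is not given. A loss of calls among all genes and one among mitochondrial genes therefore cannot be told apart there.

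At day 21, 2 of the 13 protein-coding genes, MT-ND5 and MT-ND6, were higher in FAKi by the adjusted p. The comparison shares its DMSO day 21 samples with that against day 0. MT-ND5 was the gene called, with 998, 1008 and 2280 CPM in DMSO and 3299, 3605 and 4473 CPM in FAKi (log2 fold change 1.41, SE 0.33, edgeR adjusted p = 0.0351). MT-ND6 passed the adjusted p only, with 868, 1048 and 1277 CPM against 1884, 1701 and 1550 CPM (0.69, SE 0.18, adjusted p = 0.0487). Neither gene overlapped between treatments. By the adjusted p alone these 2 passed, against 11.6% of all genes. MT-ND5 kept its call only without DMSO day 21 replicate 3, and leaving out any of the other 5 libraries gave an edgeR adjusted p of 0.0856 to 0.143 (log2 fold change 1.21 to 1.92 over the 6).

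MT-ATP8 had 199, 193 and 764 CPM in DMSO and 862, 974 and 1127 CPM in FAKi (1.36, SE 0.50, adjusted p = 0.103). MT-ND4L had 114, 93.9 and 580 CPM against 512, 668 and 1021 CPM (1.48, SE 0.65, adjusted p = 0.153). MT-ATP6 had 3547, 3918 and 7147 CPM against 8854, 8551 and 8658 CPM (0.84, SE 0.28, adjusted p = 0.0804). In all of these DMSO replicate 3 was the highest DMSO library, and in MT-ND4L it was above the lowest FAKi library. MT-CO2, with 9247, 9075 and 11650 CPM against 11742, 11158 and 10240 CPM (0.15), and MT-ND3, with 1758, 1709 and 1666 CPM against 2026, 1748 and 1467 CPM (0.03), overlapped.

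The leukocyte markers summed to 51.3 to 75.1 CPM in DMSO and 26.7 to 28.6 CPM in FAKi at day 21 and the 3 epithelial markers to 0.0490 to 0.503 and 0 to 0.0462 CPM, and their part in these values was not tested. Of the 13 protein-coding genes, 8 were higher in every FAKi library at day 21 (MT-ATP6, MT-ATP8, MT-CO1, MT-CYB, MT-ND2, MT-ND4, MT-ND5 and MT-ND6). Over the 36 mitochondrial genes 41.7% did not overlap, against 35.4% of all genes. MT-RNR1 had 633, 607 and 406 CPM in DMSO and 578, 553 and 447 CPM in FAKi, with overlap (-0.06, adjusted p = 0.856). MT-TN, with 153, 157 and 68.03 CPM against 288, 281 and 206 CPM, and MT-TC, with 132, 127 and 68.3 CPM against 250, 208 and 162 CPM, did not overlap and missed the threshold (1.03, adjusted p = 0.0601 and 0.92, adjusted p = 0.0571). MT-TS1 went the other way in part, with 1207, 1302 and 769 CPM in DMSO and 963, 833 and 584 CPM in FAKi.

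The day 21 calls depended on which libraries entered. Without DMSO day 21 replicate 3, 8 genes were called (18.7% of all genes, 11.2% higher and 7.5% lower): MT-ND4L (2.82), MT-ATP8 (2.34), MT-ND5 (1.92), MT-ND4 (1.43), MT-ATP6 (1.22), MT-TK, with 240 counts in the whole series (1.15), and MT-CYB (1.09) higher in FAKi and MT-TG (-1.09) lower. A fit with the replicate block called 6 genes (8.94% of all genes, 5.54% higher and 3.41% lower): MT-ND4L (1.94), MT-ATP8 (1.68), MT-TK (1.54), MT-ND5 (1.51) and MT-TN (1.11) higher and MT-TG (-1.06) lower. Without FAKi day 21 replicate 1, 2 were called, both lower in FAKi, and without any one of the remaining 4 libraries 0. For these fits the share of all genes is not given, so no direction is read from them.

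Over days 3 to 21 together, no mitochondrial gene was called for the mean FAKi effect (0 of 37, where 1.89% of all genes were), and 5 passed the adjusted p alone (15.7% of all genes), with 10 at an unadjusted p of at most 0.05 (30.3% of all genes). Of the 5, 4 were higher and 1 lower, against 6.96% and 8.7% of all genes. Higher in FAKi were MT-ND5 (mean log2 fold change 0.63, SE 0.17, edgeR adjusted p = 0.0126), MT-TS2, a serine tRNA (0.56, SE 0.15, adjusted p = 0.0137), MT-TE, a glutamate tRNA (0.34, SE 0.11, adjusted p = 0.0418) and MT-ATP8 (0.66, SE 0.22, adjusted p = 0.045). MT-TS1 was lower (-0.50, SE 0.16, adjusted p = 0.0297). Without the 3 libraries that stand apart 4 were called (3.79% of all genes, 2.28% higher): MT-ATP8 (1.18), MT-ND4L (1.14), MT-TD (1.11) and MT-TV (1.09), all higher. MT-ND5 was then at 0.88 and MT-TS1 at -0.64. The FAKi effect differed among days for 5 of 37 genes at an adjusted p of at most 0.05, against 10.3% of all genes, and for 31 of 37 without the 3 libraries, against 38.4%.

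Ratios of mitochondrial genes to each other do not depend on the scaling of a library, and 5 pairs were compared between treatments within each day by an exact two-sided permutation test over the 24 libraries of days 3 to 21 (160000 arrangements). The test exchanged libraries within each day as if the days were independent. If libraries of several days stem from the same cultures, its p-values are too small. MT-ND5 per 100 counts of MT-ND1 was 59.0, 56.7 and 59.4 in DMSO at day 0. At day 14 it was 53.8, 63.9 and 73.4 in DMSO and 85.8, 86.4 and 85.3 in FAKi, and at day 21 40.6, 41.8 and 50.1 against 78.98, 83.7 and 99.3. On both days the FAKi libraries were all above the DMSO libraries.

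At day 3 the same ratio was 54.8, 62.8 and 49.9 in DMSO and 66.96, 62.0 and 70.3 in FAKi, and at day 7 it was 99.5, 69.95 and 77.4 against 85.3, 88.1 and 110. Both of these days overlapped. The mean difference over the 4 days was 0.47 on the log2 scale (exact permutation p = 0.000212, adjusted p = 0.00106 over the 5 pairs), positive in 10 of 12 same-numbered pairs. MT-ND5 and MT-ND1 are both complex I subunits from the same strand, MT-ND1 near the start of the long precursor and MT-ND5 near its end. Reads of MT-ND1 can be split with its nuclear copy, and the part of this and of the short-minus-long balance in the ratio was not tested.

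**Figure D5:**
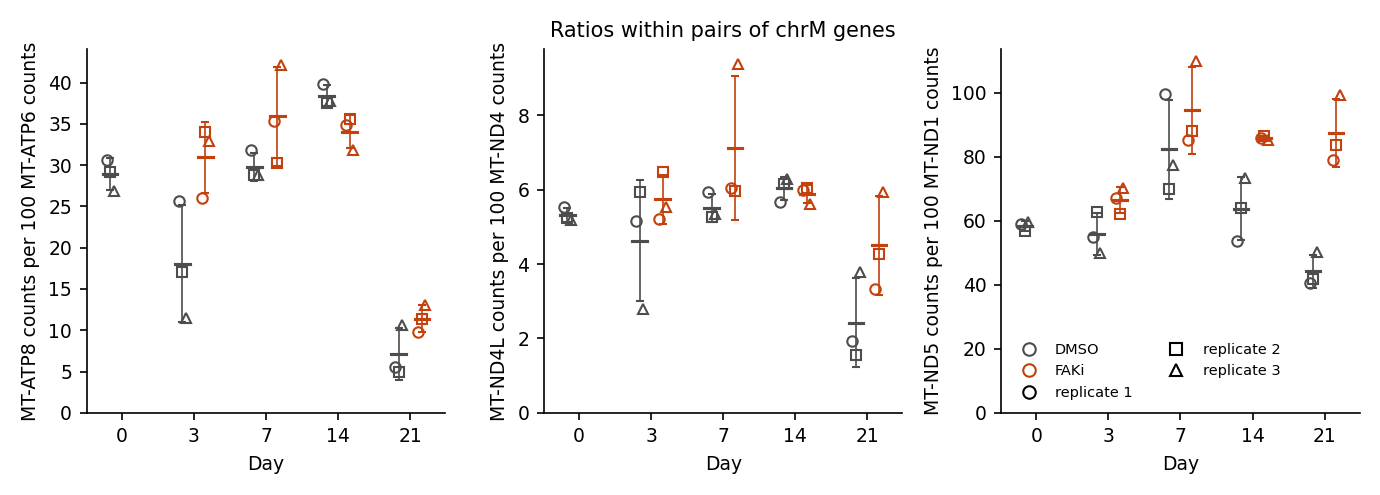
Counts per 100 counts of the partner gene (y axis) for MT-ATP8 over MT-ATP6, MT-ND4L over MT-ND4 and MT-ND5 over MT-ND1, by day (x axis) and treatment, 1 point per library. At day 21 MT-ND5 over MT-ND1 is 40.6 to 50.1 in DMSO and 78.98 to 99.3 in FAKi, while MT-ATP8 over MT-ATP6 is below its day 0 values of 26.9 to 30.6 in both treatments.

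MT-ATP8 and MT-ATP6 lie on 1 mRNA, yet their counts did not keep 1 ratio. Per 100 counts of MT-ATP6, MT-ATP8 had 30.6, 29.2 and 26.9 at day 0, 25.6, 17.0 and 11.5 in DMSO against 26.1, 34.0 and 32.9 in FAKi at day 3, and 5.602, 4.92 and 10.7 in DMSO against 9.74, 11.4 and 13.02 in FAKi at day 21. At day 7 it had 31.8, 28.8 and 28.8 in DMSO and 35.4, 30.2 and 42.1 in FAKi, and at day 14 39.9, 37.5 and 37.8 against 34.8, 35.6 and 31.8. FAKi was thus higher in every library at day 3 and lower in every library at day 14, and both treatments were far below day 0 at day 21. In DMSO at days 3 and 21 and in FAKi at day 21 this ratio fell as the short-minus-long balance rose, which was not so at day 0. Reads of MT-ATP6 can also be split with its nuclear copy. The part of the balance and of the copy in the ratio was not tested. The mean log2 difference was 0.42 (exact permutation p = 0.0135, adjusted p = 0.0338), positive in 9 of 12 pairs, and with the replicate block the adjusted p was 0.0521. The call was also lost without any one of 7 of the 24 libraries (DMSO day 3 replicate 3, FAKi day 3 replicates 2 and 3, FAKi day 7 replicate 3, DMSO day 21 replicate 2, and FAKi day 21 replicates 2 and 3), at adjusted p of 0.0513 to 0.0724 by the exact test.

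MT-ND4L per 100 counts of MT-ND4, the other pair on 1 mRNA, was 5.54, 5.25 and 5.18 at day 0, and at day 21 1.93, 1.56 and 3.79 in DMSO and 3.32, 4.27 and 5.94 in FAKi. At day 3 it was 5.15, 5.94 and 2.80 against 5.22, 6.47 and 5.52, at day 7 5.94, 5.27 and 5.33 against 6.05, 5.95 and 9.37, and at day 14 5.68, 6.15 and 6.28 against 5.98, 6.05 and 5.62. Only DMSO at day 21 lay wholly below the day 0 libraries. The mean log2 difference was 0.41 (exact permutation p = 0.0217, adjusted p = 0.0362), positive in 10 of 12 pairs. The call was lost without any one of 10 libraries, the 7 above together with DMSO day 7 replicates 2 and 3 and DMSO day 21 replicate 1, at adjusted p of 0.0513 to 0.0826. In both pairs the upstream gene is the shorter, with 207 and 297 bases. The part of the short-minus-long balance and of nuclear copies of MT-ND4 in the MT-ND4L ratio was not tested.

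The remaining pairs did not pass. MT-ND6, just beyond the end of MT-ND5 on the other strand, had 87.03, 104 and 56.0 counts per 100 of MT-ND5 in DMSO at day 21 and 57.1, 47.2 and 34.6 in FAKi (mean log2 difference over days -0.26, exact permutation p = 0.0584, adjusted p = 0.073). MT-RNR2 had 26.3, 24.8 and 23.5 counts per count of MT-RNR1 in DMSO at day 7 and 12.8, 16.9 and 18.8 in FAKi, without overlap, and at day 3 25.3, 19.2 and 16.2 against 27.6, 25.7 and 31.1, also without overlap and in the other direction. At day 21 it had 10.7, 11.7 and 18.7 in DMSO and 16.8, 16.6 and 18.9 in FAKi, which overlapped (mean 0.03, p = 0.851 by the exact test).

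Among nuclear genes, 12 of the 42 for mitochondrial gene expression passed the adjusted p for the mean FAKi effect, 2 higher and 10 lower, against 6.96% and 8.7% of all genes, and 0 were called, against 1.89%. LRPPRC, which with SLIRP keeps mitochondrial mRNAs stable, fell by 0.36 on the log2 scale (SE 0.09, edgeR adjusted p = 0.00637), and POLRMT fell by 0.34 (SE 0.09, adjusted p = 0.00873). SLIRP (-0.32, adjusted p = 0.104), PPARGC1A (0.14, adjusted p = 0.561) and TFAM (0.02, adjusted p = 0.88) did not pass. At day 21, 11 of the 71 nuclear oxidative phosphorylation genes were called lower in FAKi, against 2.71% of all genes, and without DMSO day 21 replicate 3 the count was 44, against 7.5%.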

How the data were processed

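RNA of 27 libraries was sequenced from stranded, poly(A)-selected preparations. The deposited values were raw counts per gene, made by the authors with HOMER over exons of GENCODE 39 on hg38, condensed by gene and with no strand setting. Trim Galore, FastQC 0.11.8, STAR 2.5.3a and DESeq2 stand in the submitters' processing notes. Of the count columns, 0 matched no sample. The 37 chrM genes had the same coordinates in GENCODE 44, and sequences were read from hg38.

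Shares are percent of all gene counts of a library. Tests were run in R 4.3.3 with edgeR 4.0.16 (quasi-likelihood, TMM, at least 20 counts over the libraries of a fit, Benjamini-Hochberg over all genes), on the libraries of the groups compared. DESeq2 1.42.0, other scalings and filters, and fits without single libraries were alternatives. On simulated counts for FAKi against DMSO at day 14 (23437 genes), 200 of 200 genes changed by a log2 of 2 were called, with 3 false calls. The simulation gave all genes the same small spread, no library that stood apart and no changed gene of low count. It therefore gives no error rates for the real libraries. Pair ratios used numpy 2.4.6 and the exact permutation test. The leaving out of all 3 libraries that stand apart was chosen after seeing the data. The members, gene lists and tests were chosen with earlier results of these data known.

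Genes named were the protein-coding and rRNA genes, the 5 tRNA genes with most counts, tRNA genes called in a comparison, 5 nuclear regulators and the 4 largest pseudogenes. MTND1P23, the next pseudogene in size, was added after its counts were seen. Other tRNA genes named beside counts of 5 or fewer, and those of low count, were chosen after their values were seen. Deviations of same-numbered DMSO and FAKi libraries from their group means correlated at day 21 by 0.431, 0.134 and 0.65 for replicates 1 to 3. Replicate 3 had the lowest short-minus-long balance of both groups there (0.405 in DMSO and 0.158 in FAKi). These correlations therefore do not settle whether the numbers paired samples. No pairing by number was seen at day 3 (0.00613, 0.0449 and 0.11), day 7 (-0.148, -0.0751 and -0.0774) or day 14 (0.000855, -0.00821 and -0.0434). Counts cannot show effects within counting error, and intervals were not computed for libraries of this depth.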

Additional observations from a re-analysis of the deposited data

Results flagged for a closer look

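The FAKi effect differed among days 3, 7, 14 and 21 by the interaction test of edgeR for 5 of the 37 mitochondrial genes, where 10.3% of all genes did. MT-TN (adjusted p = 0.00307) had log2 fold changes of -1.001, 1.48, -0.28 and 1.03 at the 4 days in order, and MT-RNR1 (adjusted p = 0.0153) had -0.22, 0.79, -0.12 and -0.06. MT-TT (adjusted p = 0.0263) had -1.23, 0.98, 0.55 and 0.46, MT-TS2 (adjusted p = 0.0282) had 1.00, 1.43, -0.26 and 0.08, and MT-TC (adjusted p = 0.0347) had -0.71, 0.72, 0.08 and 0.92. None of the 5 passed the adjusted p in the FAKi comparison of any single day. Of these 5 genes 4 code for tRNAs, and MT-TT was at 1.38 to 17.8 CPM in the libraries of days 3 to 21. Without the 3 libraries that stand apart the number of genes was 31, against 38.4% of all genes.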

How the results depend on the processing

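How many mitochondrial genes were called for FAKi against DMSO varied with the processing. Without a count filter they were 5 at day 3, 4 at day 7 and 5 at day 21, and 23 for differences of the FAKi effect among days. DESeq2 gave 3, 2 and 3, and 9 among days. A fit over all 27 libraries gave 4, 2, 1 and 3 at the 4 days in order, and scaling by library totals only 3 at day 21. The replicate block gave 6 at day 21 and changed no other count of calls. With the adjusted p and no fold minimum, 10 passed at day 14, 2 at day 21 and 5 for the mean effect, and at an adjusted p of at most 0.01 1 differed among days. Without the 3 libraries that stand apart, the mean effect had 4 and the differences among days 31. Leaving out 1 library at a time gave 0 to 19, 0 to 8, 0 to 0 and 0 to 8 at these days, 0 to 1 for the mean effect, 2 to 20 for differences among days, 27 to 31 among DMSO days and 17 to 22 for DMSO day 21 against day 0. Most of these counts stand without the share of all genes called in the same setting. That share moved too, at day 3 from 0% to 12.7% without DMSO day 3 replicate 1. The counts show how far the calls varied, and not whether mitochondrial genes differed from other genes. The cause was not tested.

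Of the pair ratios, MT-ND5 over MT-ND1 kept its direction and its side of the threshold under every alternative run (0.44 to 0.51 leaving out 1 library). MT-ATP8 over MT-ATP6 was 0.42 with the replicate block (adjusted p = 0.0521), 0.28 without day 3 (adjusted p = 0.153), 0.48 without day 7 (0.0959) and 0.31 without day 21 (0.195). MT-ND4L over MT-ND4 was 0.42 without day 3 (0.0892), 0.43 without day 7 (0.0959) and 0.23 without day 21 (0.196). MT-ND6 over MT-ND5 was -0.38 without day 3 (0.0269) and -0.36 without the 3 libraries (0.0271), and MT-RNR2 over MT-RNR1 -0.13 without day 3 and -0.094 without day 21. Leaving out 1 library gave 0.35 to 0.51, 0.33 to 0.50, -0.32 to -0.21 and -0.028 to 0.089 for these 4.

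Of 2080 recomputed values of 100 results for single genes, 2004 kept direction and call, 36 changed sign, 35 gained a call and 5 lost one. Those that changed sign lay near 0. At day 14 they were MT-RNR1 (0.0073) and MT-CO1 (0.035) by library totals and MT-TE by relative log scaling (-0.0020), upper quartile (-0.018), 10 counts in every library (-0.0084), the edgeR default filter (-0.0048), thinning (-0.00078) and DESeq2 (-0.0020). At day 21 they were MT-RNR1 by library totals (0.15) and MT-ND3 over all 27 libraries (-0.021), and for the mean effect MT-ND3 with scaling outside chrM (-0.00026). Leaving out 1 library at a time gave both signs for MT-ND1 (-0.026 to 0.466) and MT-ND4 (-0.0086 to 0.144) at day 7, MT-ND5 (-0.425 to 0.0084), MT-TS1 (-0.081 to 0.326), MT-TE (-0.155 to 0.117) and MT-TY (-0.047 to 0.234) at day 14, MT-RNR1 (-0.235 to 0.056), MT-ND3 (-0.089 to 0.148), MT-TE (-0.073 to 0.303) and MT-TH (-0.508 to 0.079) at day 21, and MT-ND3 in the mean effect (-0.029 to 0.058).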
